A study of Mus musculus with 8 samples.

Results

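Sulfated glycosaminoglycans are long sugar chains built on proteoglycan core proteins in the Golgi, and heparan sulfate and chondroitin sulfate are the main kinds on epithelial tumour cells. Sulfate enters the cell through transporters such as Slc26a2, the PAPS synthases Papss1 and Papss2 convert it to the activated donor PAPS, and Ugdh makes the UDP-glucuronic acid that supplies the acidic sugar of the chain. The xylosyltransferases Xylt1 and Xylt2 start the linker on the core protein, Extl3 commits the linker to heparan sulfate, Ext1 and Ext2 together polymerise the chain, and Ndst1 begins its sulfation. These 10 genes were followed in mouse pancreatic ductal adenocarcinoma cells with and without C1galt1c1, among 49315 gene identifiers. They were chosen by the measured KO minus WT difference of Slc26a2, which was lower in every knockout, together with 9 partners of known function in the same pathway. The values of Slc26a2 between knockout and parent are therefore a description, with no test.

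Each of the 4 cell lines, 6694c2, 2838c3, 6499c4 and 6419c5, gave 1 C1galt1c1-knockout (KO) library and 1 wild-type (WT) library of polyadenylated RNA, 8 libraries in all. C1galt1c1, also called Cosmc, is the chaperone of the core 1 O-glycan synthase, and the series describes the KO cells as Tn-antigen positive. All cells were grown in the same serum-containing high-glucose medium. The labels do not say whether a KO culture was 1 clone or a pool, and since each genotype has 1 library in a line, single within-line differences stand without an error of their own. Expression was deposited as TPM, a length-scaled relative abundance with the same total in every library, which does not keep the depth.

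C1galt1c1 itself was at 10.9, 15.3, 19.0 and 16.1 TPM in the KO libraries of 6694c2, 2838c3, 6499c4 and 6419c5, against 37.0, 40.4, 54.2 and 37.9 TPM in their WT libraries. The KO group lay below the WT group without overlap, with an estimate of -1.27 on the log2 scale (adjusted p = 0.402 in limma, a linear model with genotype and cell line fitted across all genes). The ductal keratins Krt8, Krt18 and Krt19 lay between 2528 and 8257 TPM in every library, and the summed level of 7 ductal markers was 13448 to 24709 TPM in KO and 14443 to 20160 TPM in WT libraries. Epcam, another epithelial marker, was low, between 1.21 and 44.9 TPM. The summed fibroblast markers (7 genes) were at 2.31 to 7.42 TPM in KO and 2.11 to 6.83 TPM in WT libraries, and the endothelial markers (4 genes) at 0.197 to 1.14 TPM in KO and 0.226 to 1.16 TPM in WT libraries. Immune markers (6 genes) summed to 8.22 to 28.8 TPM in KO and 6.13 to 14.8 TPM in WT libraries, nearly all of it Cd68, while Ptprc did not exceed 0.151 TPM. Acinar and islet markers (6 genes) summed to 4.59 to 23.7 TPM in KO and 4.86 to 44.4 TPM in WT libraries, all of it Cela1. Identifiers with no gene name held 12.5% and 9.69% of the TPM in the KO libraries of 6694c2 and 6419c5, against 1.22% and 1.05% in their WT libraries and at most 1.33% in the other 4 libraries. Because such RNA lowers the share of every other gene, each library was scaled by its median ratio, and a difference below is KO minus WT in log2(scaled TPM + 1). Without scaling the median gene differed by -0.15, and with it by -0.0051. By line the unscaled median was -0.23 in 6694c2, -0.081 in 2838c3, -0.11 in 6499c4 and -0.16 in 6419c5. The source of the shift in 2838c3 and 6499c4 was not tested.

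Slc26a2, the sulfate transporter, was lower in the KO library of each line. It stood at 43.2, 50.6, 216 and 87.1 TPM in the KO libraries of 6694c2, 2838c3, 6499c4 and 6419c5, against 82.3, 84.4, 444 and 148 TPM in their WT libraries. In TPM as deposited, without scaling, the KO level was thus 52.5%, 59.9%, 48.7% and 58.7% of the WT level in the same lines. The ranges of the KO and WT groups overlapped across lines, and even the KO library of 6499c4 held more Slc26a2 RNA than any WT library of another line. On the scaled log2 scale the differences were -0.68, -0.64, -0.90 and -0.59, with a mean of -0.70. Of the 12900 genes kept for the fit, those with at least 1 TPM in at least 4 libraries, 17 were lower by at least 0.59 in every line, Slc26a2 included. The gene (ENSMUSG00000034320) lies on the minus strand of chromosome 18, from 61325989 to 61344706 in GRCm39.

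Among the partners of Slc26a2, Ugdh alone was lower in KO in all 4 lines, and by less than Slc26a2 in each. Of 8 partners with enough RNA for the fit, 0 passed in KO against WT at a limma p adjusted over all genes by Benjamini-Hochberg, where 0% of the 12900 genes passed, and 0 reached an unadjusted p of 0.05 in either direction. In TPM as deposited Ndst1 reached it, at -0.48 (limma, adjusted p = 0.561). At that unadjusted p 2.71% of all genes were lower and 2.30% higher in KO, or 349 and 297 genes, against 1026 and 111 in TPM as deposited. The sign of Ugdh, lower in all 4 lines, was shared by 6.88% of all genes, and 0 partners were higher in all 4, as were 6.39% of all genes. In TPM as deposited Papss2 and Ndst1 were also lower in all 4 KO libraries, which made 4 of the 9 genes with Slc26a2 in place of 2. The median difference of the 8 partners was -0.14. By line it was -0.53 in 6694c2, 0.17 in 2838c3, 0.18 in 6499c4 and -0.28 in 6419c5. Papss2, Ugdh and Ndst1 did not have these signs in all lines.

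Papss1 and Papss2, the paired enzymes that make PAPS from sulfate and ATP, differed between KO and WT in different lines. Papss1 (chromosome 3, 131270491 to 131349434, plus strand) was at 91.3, 190.4, 176 and 264 TPM in the KO libraries of 6694c2, 2838c3, 6499c4 and 6419c5, against 130.3, 162, 147 and 338 TPM in their WT libraries. It was lower in KO in 6694c2 and 6419c5 and higher in 2838c3 and 6499c4, and the groups overlapped. The limma estimate was 0.07 with a 95% interval of -0.33 to 0.46 (adjusted p = 0.973).

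Papss2 (chromosome 19, 32573055 to 32644589, plus strand) was at 81.9, 63.1, 34.9 and 139 TPM in the KO libraries of the same lines, against 86.7, 116, 40.8 and 156 TPM in the WT libraries. Its difference lay in 2838c3, at -0.78, and was between -0.09 and 0.16 in the other lines. The estimate was -0.17 (95% interval -0.61 to 0.26, limma, adjusted p = 0.946). Without 2838c3 it was 0.028.

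Papss2 accounted for 47.3%, 24.9%, 16.5% and 34.6% of the summed PAPS synthase TPM in the KO libraries of 6694c2, 2838c3, 6499c4 and 6419c5, against 39.9%, 41.8%, 21.7% and 31.5% in the WT libraries. This share is taken within a library and does not depend on how the library was scaled. It was higher in KO in 2 lines and lower in 2, with a mean difference of -2.93 percentage points (SD 10.7, n = 4 lines, exact two-sided sign-flip permutation test p = 0.75, a test in which 4 lines cannot give a p below 1 in 8). Without 2838c3 the mean difference was 1.73 percentage points.

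Ugdh, which oxidises UDP-glucose to UDP-glucuronic acid, had the highest level of the 10 genes in 7 of the 8 libraries. It stood at 421, 541, 309 and 534 TPM in the KO libraries of 6694c2, 2838c3, 6499c4 and 6419c5, against 633, 593, 373 and 628 TPM in the WT libraries. Only the WT library of 6499c4 held more Slc26a2 than Ugdh RNA, per length. The KO library was lower in each line, but by little outside 6694c2. The scaled log2 differences were -0.35, -0.05, -0.14 and -0.06 in the same order, with an estimate of -0.15 (95% interval -0.47 to 0.18, limma, adjusted p = 0.935). The gene lies on the minus strand of chromosome 5, from 65570551 to 65593805.

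The xylosyltransferases were unequal in level. Xylt1 (chromosome 7, 116979979 to 117272803, plus strand) was at 0.972, 0.641, 0.0915 and 0.0552 TPM in the KO libraries of 6694c2, 2838c3, 6499c4 and 6419c5, against 0.857, 1.73, 0.0492 and 0.0214 TPM in the WT libraries. It exceeded 1 TPM in 1 library, the WT library of 2838c3, and was left out of the fit. With no filter on low values its estimate was -0.09 (95% interval -0.52 to 0.34, limma, adjusted p = 0.928). The counting error of each value is unknown, because TPM keep no depth.

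Xylt2 (chromosome 11, 94553166 to 94568367, minus strand) was at 9.14, 28.9, 28.4 and 12.2 TPM in the KO libraries, against 17.7, 10.6, 22.5 and 18.1 TPM in the WT libraries, in the same order of lines. Both directions were large for this gene. In TPM as deposited, KO cells of 2838c3 held 274% of the WT level and KO cells of 6694c2 51.5%. The scaled log2 differences were 1.45 and -0.66 in these lines. The estimate was 0.22 (95% interval -0.60 to 1.03, limma, adjusted p = 0.965), and without 2838c3 it was -0.19. Xylt1 made up at most 14.1% of the summed xylosyltransferase TPM in any library, in the WT library of 2838c3, against 2.17% in the KO library of that line. It made up 9.61% in the KO and 4.61% in the WT library of 6694c2, and under 0.5% in every library of 6499c4 and 6419c5. The mean difference of this share was -1.62 percentage points (SD 7.23, n = 4 lines, exact two-sided sign-flip permutation test p = 1), and without 2838c3 it was 1.81.

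Extl3, which adds the first N-acetylglucosamine of a heparan sulfate chain, was at 13.8, 47.9, 31.2 and 25.8 TPM in the KO libraries of 6694c2, 2838c3, 6499c4 and 6419c5. Its WT libraries held 27.3, 35.9, 29.1 and 42.6 TPM. In TPM as deposited, KO cells thus had 50.5% and 60.5% of the WT level in 6694c2 and 6419c5. They had 133% and 107% in 2838c3 and 6499c4. The scaled log2 differences were -0.71 in 6694c2, 0.49 in 2838c3, 0.23 in 6499c4 and -0.54 in 6419c5. The estimate was -0.13 (95% interval -0.68 to 0.42, limma, adjusted p = 0.965). It was 0.062 without 6694c2 and 0.0062 without 6419c5. The gene lies on the minus strand of chromosome 14, from 65287059 to 65387357.

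Ext1 and Ext2, whose products form the heparan sulfate polymerase, stood at similar TPM. Ext1 (chromosome 15, 52927434 to 53209602, minus strand) was at 22.5, 64.8, 25.8 and 37.1 TPM in the KO libraries of the same lines, against 40.9, 38.0, 23.1 and 52.6 TPM in the WT libraries. Ext2 (chromosome 2, 93491373 to 93653003, minus strand) was at 27.3, 44.3, 40.9 and 33.9 TPM in the KO libraries, against 45.8, 46.9, 40.5 and 45.3 TPM in the WT libraries. The WT libraries of Ext2 differed little from each other (44.6 ± 2.83 TPM, SD, n = 4), and the KO libraries varied more (36.6 ± 7.57 TPM, SD, n = 4).

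The limma estimates were 0.05 for Ext1 (95% interval -0.54 to 0.64, adjusted p = 0.988) and -0.14 for Ext2 (95% interval -0.52 to 0.23, adjusted p = 0.946). Without 2838c3 the Ext1 estimate was -0.21. The ratio of Ext1 to Ext2 was 0.825, 1.46, 0.631 and 1.09 in the KO libraries, against 0.892, 0.81, 0.571 and 1.16 in the WT libraries. Its log2 difference was 0.20 on average (SD 0.45, n = 4 lines, exact two-sided sign-flip permutation test p = 0.625), set by 2838c3 at 0.85. Without that line it was -0.020.

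Ndst1, which removes acetyl groups from the chain and puts sulfate in their place, was at 29.1, 47.9, 33.9 and 27.6 TPM in the KO libraries of 6694c2, 2838c3, 6499c4 and 6419c5, against 51.3, 55.5, 36.6 and 49.8 TPM in the WT libraries. In TPM as deposited, KO cells held 56.8% and 55.4% of the WT level in 6694c2 and 6419c5. The shares were 86.4% and 92.6% in 2838c3 and 6499c4. On the scaled log2 scale Ndst1 differed by -0.56 in 6694c2, -0.12 in 2838c3, 0.02 in 6499c4 and -0.66 in 6419c5. Apart from Slc26a2 it had the largest average difference toward lower values, -0.33, with an interval that includes 0 (95% interval -0.73 to 0.07, limma, adjusted p = 0.935). Without both 6694c2 and 6419c5 it was -0.047. Like Slc26a2 it lies on the minus strand of chromosome 18, from 60817566 to 60881766.

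A pattern of signs recurred among the partners. Papss1, Xylt2, Ext1, Ext2 and Extl3, 5 of the 8, were lower in KO in 6694c2 and 6419c5 and higher in KO in 2838c3 and 6499c4, as were 10.8% of all genes. In TPM as deposited 4 of the 8 had these signs, since Ext2 of 2838c3 lay at 44.3 TPM in KO and 46.9 TPM in WT cells. The pattern was noticed in these data, so it has no test. In 6694c2 and 6419c5, unnamed identifiers also held the larger shares of KO TPM, 12.5% and 9.69%. With unnamed identifiers and structural RNA removed, the estimates were 0.07 for Papss1, 0.22 for Xylt2, 0.05 for Ext1, -0.14 for Ext2 and -0.13 for Extl3. Those of the main fit round to the same values. This likeness was largely fixed in advance, because the scaling cancels any constant factor of a library. The estimates are also means over lines and do not show the sign in each line. The part of that RNA in the pattern of signs was not tested. After scaling the median gene lay between -0.018 and 0.014 in each line. In the other pathway lists 11 of 70 genes had these signs. They were the heparan sulfate sulfotransferases Ndst2, Hs2st1 and Hs6st1, the dermatan sulfotransferase Chst14, the core proteins Sdc1, Sdc4, Hspg2 and Agrn, and the degradation genes Naglu, Galns and Sumf1.

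The 3 sulfate supply genes passed a test between the cell lines, with a limit for Slc26a2, and the 6 other genes did not. In the F-test on the line terms of the same limma fit, 3 of the 9 genes passed at an adjusted p under 0.05: Slc26a2 (adjusted p = 0.00116), Papss2 (0.0167) and Papss1 (0.0457). The share over all genes was 17.0%. The error of this test is how the KO minus WT difference varies between lines. Slc26a2 was chosen because that difference was negative in every line, a choice that favours a small error. Its F-test p-values, here and below, are therefore a description and cannot decide whether its level differed between lines. Averaged over both libraries of a line, Slc26a2 was at 330.5 TPM in 6499c4, 118 TPM in 6419c5, 67.5 TPM in 2838c3 and 62.7 TPM in 6694c2. The libraries of 2838c3 and 6694c2 overlapped in range, so the order of these neighbours is not resolved, while 6419c5 and 6499c4 lay above them without overlap.

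Papss2 ran in another order, with 148 TPM in 6419c5, 89.5 TPM in 2838c3, 84.3 TPM in 6694c2 and 37.8 TPM in 6499c4, and 2838c3 and 6694c2 again overlapped. Line 6499c4 thus had the highest Slc26a2 and the lowest Papss2 level. Papss1 was highest in 6419c5, at 301 TPM, followed by 176 TPM in 2838c3, 162 TPM in 6499c4 and 111 TPM in 6694c2. The ranges of 2838c3 and 6499c4 overlapped, and those of the other neighbours did not.

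Ugdh did not pass (adjusted p = 0.0861), with means of 581, 567, 527 and 341 TPM in 6419c5, 2838c3, 6694c2 and 6499c4. The first 3 of these lines overlapped, and both libraries of 6499c4 lay below all others. Xylt2, Ext1, Ext2, Extl3 and Ndst1 did not pass either, with adjusted p-values from 0.240 for Ext1 to 0.759 for Ext2. Ext2 was the most even of the 9, with line means from 36.5 TPM in 6694c2 to 45.6 TPM in 2838c3.

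These calls between lines rest on particular lines and settings. Without 6499c4 the F-test left 0 of the 9 genes (adjusted p = 0.113 for Slc26a2, 0.257 for Papss2 and 0.0740 for Papss1), and without 6419c5 it left Slc26a2 (0.00539). Without 6694c2 Papss1 was lost (0.112), and without 2838c3 Ugdh passed as well (0.0388). With no filter on low values Slc26a2 alone passed (0.00797), with Papss2 at 0.0519 and Papss1 at 0.108. With no variance trend Papss1 was lost (0.0603).

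The 5 genes whose level over the 8 libraries was most like that of Slc26a2 were Ripply3 (Pearson's r = 0.977), Galnt4 (0.977), Il17re (0.974), Loricrin (0.969) and Cldn7 (0.967). The 8 libraries come in pairs from 4 lines, so they are not independent, and these values are a description. Galnt4, an enzyme that adds O-linked GalNAc to proteins, averaged 35.9 TPM in KO and 60.8 TPM in WT libraries, and its differences in the 4 lines ran from -0.69 in 6499c4 to -0.31 in 6419c5. Cldn7, a tight junction protein, averaged 5.86 TPM in KO and 12.1 TPM in WT libraries and was lower in KO in each line. Il17re was at 0.038 in 2838c3 and lower in KO in the other lines. The genes were picked for likeness to Slc26a2, itself chosen for its fall in KO. Their lower KO levels are therefore a description too. Of the partners, the highest r with Slc26a2 was 0.42 for Xylt2 and the lowest -0.76 for Ugdh. This r takes in differences between lines as well as between KO and WT. Line 6499c4 had the highest Slc26a2 and the lowest Ugdh level, while both genes were lower in KO in each line.

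Around the 10 genes, 104 others of the pathway were read in 8 lists, and 70 of them were kept for the fit. None passed in KO against WT at an adjusted limma p under 0.05 (0 of 70). At an unadjusted p under 0.05 there were 2 of 70 lower and 1 higher in KO, where 2.71% and 2.30% of all genes were. Of the 70, 8 were lower in KO in all 4 lines (11.4%, against 6.88% of all genes) and 2 were higher in all 4 (against 6.39% of all genes). The median difference of the 70 was -0.023, against -0.0051 over all genes.

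Among genes that handle sulfate outside chain assembly, 0 of 8 reached an unadjusted p of 0.05, with a median of -0.19. The Golgi PAPS transporter Slc35b2 averaged 98.8 ± 35.9 TPM in KO and 109.5 ± 24.1 TPM in WT libraries (SD, n = 4). Its estimate was -0.04, with -0.50 in 6694c2 and values from 0.0047 to 0.17 in the other lines. The second PAPS transporter, Slc35b3, stood at -0.27 and the tyrosylprotein sulfotransferase Tpst1 at -0.36 (-0.98 in 2838c3), each lower in KO in all 4 lines (Slc35b3 in 6419c5 by almost nothing), and Bpnt1, which clears the spent donor, at -0.18. The value of Bpnt1 came from 2838c3 at -1.41, while 6694c2 and 6419c5 were at 0.53 and 0.40. The 10 genes of UDP-sugar supply had a median of 0.050, with the hexosamine pathway genes Gfpt1 at 0.51 and Pgm3 at 0.44. Gfpt1 was at 1.02 in 2838c3 and higher still in 6694c2, but at -0.15 and 0.06 in 6499c4 and 6419c5, and Pgm3 ran from -0.23 in 2838c3 to 1.16 in 6694c2. The 5 genes that complete the linker had a median of -0.11. The galactosyltransferase B4galt7 stood at 0.29, the xylose kinase Fam20b at -0.24 and the glucuronosyltransferase B3gat3 at -0.054, the last of these lower in KO in 2838c3 alone (-0.46).

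Genes that modify heparan sulfate had a median of -0.18 over 10 genes. Hs3st1, a 3-O-sulfotransferase, averaged 77.0 ± 28.2 TPM in KO and 103 ± 35.7 TPM in WT libraries (SD, n = 4). It was lower in KO in all 4 lines, at -0.28 (limma, adjusted p = 0.935). The 6-O-endosulfatase Sulf2 stood at -0.51, mostly from 2838c3 at -1.66. Hs2st1 stood at -0.08, with -0.80 in 6694c2 and 0.74 in 2838c3. The 8 genes of chondroitin and dermatan sulfate synthesis had a median of 0.16, with Chsy1 at 0.41, Dse at 0.26, Chst12 at -0.12 and Chpf at 0.019. Each of these 4 was lower in KO in some lines and higher in others, with Chsy1 at 1.26 in 2838c3 and Dse at 0.97 in 6694c2.

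Core proteins had a median of 0.021 over 11 genes. The cartilage proteoglycan Acan averaged 119 ± 75.1 TPM in KO and 78.7 ± 72.7 TPM in WT libraries (SD, n = 4), an estimate of 0.98 (limma, adjusted p = 0.935) carried mostly by 2838c3 at 2.33. Acan and Col18a1 were each higher in KO in all 4 lines, as were 6.39% of all genes. Col18a1 stood at 0.31, and the syndecans Sdc1 and Sdc4 at 0.021 and 0.023. These near-zero means hide opposite directions: Sdc1 ran from -0.69 in 6694c2 to 0.90 in 2838c3, and Sdc4 from -0.61 to 0.62 in the same lines. The hyaluronan list (4 genes, median -0.14) held Cemip2, which breaks down hyaluronan, at -0.50, Hyal1 at 0.44 and Hyal2 at -0.21. Cemip2 was at -1.15 in 6694c2, and Hyal1 ran from -0.46 in 6694c2 to 1.66 in 2838c3. Chain degradation (14 genes, median -0.12) held Hpse, the heparanase that cuts heparan sulfate, at 12.9 ± 4.30 TPM in KO and 28.3 ± 8.26 TPM in WT libraries (SD, n = 4). In TPM as deposited Hpse was at 7.15, 14.4, 17.4 and 12.7 TPM in the KO libraries of 6694c2, 2838c3, 6499c4 and 6419c5. The WT libraries held 23.2, 21.8, 28.1 and 40.0 TPM. Hpse, named for the smallest unadjusted p of its list, was lower in KO in each line, as were 6.88% of all genes. Its estimate was -0.95, and its limma adjusted p of 0.764 did not pass. Gusb stood at -0.35 (-0.86 in 2838c3) and Glb1 at 0.00021 (-0.36 in 6694c2 and 0.26 in 2838c3).

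Between the lines, 16 of the 70 pathway genes passed the F-test at an adjusted p under 0.05, 22.9% of them against 17.0% of all genes, and 7 of these were core proteins. The endosulfatases, which trim 6-O-sulfate from finished heparan sulfate, were split between lines. Sulf2 averaged 49.4 and 37.1 TPM in 6694c2 and 2838c3, against 0.401 and 1.04 TPM in 6499c4 and 6419c5, whereas Sulf1 averaged 0.128 and 0.071 TPM in 6694c2 and 2838c3 and 4.50 and 11.5 TPM in 6499c4 and 6419c5. The syndecan Sdc2 averaged 26.6 TPM in 2838c3 and 21.6 TPM in 6419c5, against 0.185 TPM in 6694c2 and 0.157 TPM in 6499c4. Sulf1 and Sdc2 are named because of these values, as the 11 genes above are because of their signs, and not by the rule that chose the other pathway genes.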

How the data were processed

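Polyadenylated RNA of 8 libraries was sequenced as paired ends, per the labels' protocols. The authors deposited TPM for 49315 identifiers, and the values of each library sum to 1000000. STAR 2.7.11b, the counter featureCounts 2.1.1 and the trimmer cutadapt 5.1 are named, with build mm39, per the submitters' processing notes, which also list DESeq2 2.11.40.8 without a role. How TPM were made, the gene lengths and whether strand was used in counting are not given in the sources used here, so reads of overlapping genes may be shared.

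Of the identifiers, 45505 were matched to names and positions of GENCODE vM39 (GRCm39, which UCSC calls mm39). Genes with at least 1 TPM in at least 4 libraries were kept (12900). TPM were divided by median-ratio factors, and limma 3.58.1 in R 4.3.3 was fitted across all genes to log2(TPM + 1) with genotype, cell line and a mean-variance trend. Fold changes on this scale understate the change of low genes. Benjamini-Hochberg adjustment ran over all genes kept, with calls at 0.05, and the step was tested on simulated data. Line is a block because both libraries come from the same line, and their deviations from the group means correlated. This r was lowest in 2838c3, at 0.42, and highest in 6499c4, at 0.79. The genotype p-value is judged against how the KO minus WT difference varies between lines. The line F-test uses the same error, with the KO and WT library of a line as its replicates. Slc26a2 was chosen on the differences that give this error, so its F-test p-values are a description. Spike-in RNA, added per the labels' protocols, was not analysed here.

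The members and lists were chosen with earlier results of these data known. By rule, named genes are the 10 members, C1galt1c1, the 2 genes of each list with the smallest unadjusted p and the 2 with the highest mean TPM, and the 5 most like Slc26a2; some genes that this rule selects are not reported here. Sulf1, Sdc2 and the 11 pathway genes given for their signs across lines were named after their values were seen, unless the rule names them too. Python 3.11.15, pandas 2.3.3, numpy 2.4.6 and matplotlib 3.10.9 were used.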

Additional observations from a re-analysis of the deposited data

Results flagged for a closer look

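The groups of 4 values included the KO or WT libraries of a gene and its KO minus WT differences in the 4 lines. A value was marked where its gap to the nearest other exceeded Dixon's 95% critical share of the group's range. Chance alone gives such a mark in about 1 in 20 groups. Of 32 groups examined among the 10 genes, 2 were marked. Papss1 was at 338 TPM in the WT library of 6419c5, against 130.3 to 162 TPM in the other WT libraries, and its KO library in that line was also the highest of the KO libraries, at 264 TPM. Ugdh was at 373 TPM in the WT library of 6499c4, against 593 to 633 TPM in the other WT libraries, and the KO library of that line was the lowest of the KO libraries, at 309 TPM.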

How the results depend on the processing

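The count of genes passing in KO against WT was 0 in each of the 13 other settings tried. These were TPM as deposited, quantile normalization, a pseudocount of 0.1, no filter, a TPM minimum of 5, and no variance trend. The others were no replicate block, structural RNA removed, lines 6694c2 and 6419c5 both left out, and each line left out in turn. Removal of structural RNA also dropped all identifiers with no gene name. At an unadjusted p under 0.05 limma gave 646 genes as reported, 1137 with TPM as deposited, and 123 with no replicate block in place of the paired fit. Slc26a2 was lower in KO in each setting, from -0.86 (TPM as deposited) to -0.64 (without 6499c4). With TPM as deposited, 4 members in place of 2 were lower in all lines, and Papss1 (-0.093) and Ext1 (-0.11) changed sign. Without both 6694c2 and 6419c5, Ext2 was at 0.078 and Extl3 at 0.36, also a change of sign, Xylt2 was at 0.95 in place of 0.22 (limma, adjusted p = 0.642, past the unadjusted threshold of 0.05), Ext1 at 0.56, Papss1 at 0.36, Papss2 at -0.43 and Ndst1 at -0.047, 1073 genes in place of 2189 differed between lines, and 1 member did. With no filter 1 member differed between lines, and in each of these 2 settings it was Slc26a2. With a line left out the count of genes differing between lines ran from 726 to 3810 and that of members from 0 to 4. The counts of members include Slc26a2, whose F-test p-values are a description. In the same omissions Papss1 ran from -0.045 to 0.18, Papss2 from -0.29 to 0.028, Xylt2 from -0.19 to 0.51, Ext1 from -0.21 to 0.27 and Extl3 from -0.34 to 0.062. The Papss2 share ran from -6.35 to 1.73 percentage points, the Xylt1 share from -3.83 to 1.81, and the log2 Ext1 to Ext2 ratio from -0.020 to 0.30. The causes were not tested. Ugdh and Ndst1 kept their direction in all 13 settings. The data keep no read depth, so the error of single low values such as Xylt1 is unknown.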
